A study of Mus musculus with 18 samples.

Results

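The 7 genes described here are the keratins and ductal markers of the liver: Krt8 and Krt18 of hepatocytes, Krt7, Krt19, Epcam and Sox9 of the biliary epithelium, and the stress-responsive keratin Krt23. They were chosen as a list of symbols from the 23352 gene symbols in the FPKM tables (fragments per kilobase of transcript, scaled to the mapped reads of a library). The study sequenced poly(A) RNA from whole livers of 20-week-old male mice on a high-fat diet (HFD), 9 wild-type (WT) and 9 Gpr180KO, with 1 library per mouse. The Gpr180KO mice were homozygous for a CRISPR/Cas9 deletion of exon 6 of Gpr180, which encodes a membrane protein, in every cell of the body. Both genotypes came from heterozygous matings on a C57BL/6J background, and they shared the diet, sex and age, so that no value here bears on the diet itself. The libraries are called WT1 to WT9 and KO1 to KO9, numbers that name a mouse and pair none.

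Keratins are the intermediate filament proteins of epithelial cells and assemble as obligate pairs of a type II and a type I chain. Hepatocytes build their filaments almost entirely from keratin 8, the type II chain, and keratin 18, its type I partner, which protect the cell against mechanical and toxic stress and accumulate in Mallory-Denk bodies in steatohepatitis. Cholangiocytes, the cells that line the bile ducts, add keratin 7 and keratin 19, carry the adhesion molecule EpCAM, and express the transcription factor SOX9. In bulk liver, fewer cells of a type and less RNA per cell cannot be told apart.

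Gpr180 itself had 6.79 ± 1.99 FPKM in WT and 1.60 ± 0.37 FPKM in Gpr180KO livers (mean ± SD, n = 9 each), with all 9 Gpr180KO values below all WT values. The summed FPKM of a library lay between 554796 and 588433 in WT and between 561839 and 718746 in Gpr180KO, where KO5 was the highest. The files hold no read counts. Relative depth, read from the steps between the lowest FPKM values, was 60.7 to 100% of the deepest library in WT and 44.4 to 94.0% in Gpr180KO. Sample titles come in 2 styles, with 4 mice per genotype in set 1 (WT1 to WT4, KO1 to KO4) and 5 in set 2. The sets may be batches, so the differences of the 7 members and the Krt8 to Krt18 ratio are also given within them. Over the 10835 genes with a mean of at least 1 FPKM, the median log2 difference (Gpr180KO minus WT) was −0.13, and 76.9% of genes were below 0. Median-of-ratios scaling, which divides each library by its median ratio to a common reference, brought that median to −0.01. Scaled values of the members, and of list genes whose call depends on the scale, are therefore given beside those as deposited.

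The hepatocyte marker list was high in every library, with a summed level of 20834 to 25798 FPKM in WT and 23675 to 37802 FPKM in Gpr180KO. Among the ductal members the means over all 18 livers were 1.15 FPKM for Sox9, 0.827 FPKM for Krt19, 0.739 FPKM for Epcam and 0.404 FPKM for Krt7. Of 52 keratin symbols in the files, only Krt8, Krt18 and Krt23 had a mean of at least 1 FPKM, 6 lay between 0.1 and 1 FPKM, and 34 were listed at 0 in all 18 libraries. Krt8 and Krt18 together made up 92.2 to 99.1% of the summed keratin FPKM of a liver, with a median of 97.8% in WT and 95.9% in Gpr180KO. Krt10, a keratin of differentiated epidermis, stood between Krt19 and Krt7 with 0.696 FPKM.

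**Figure D1:**
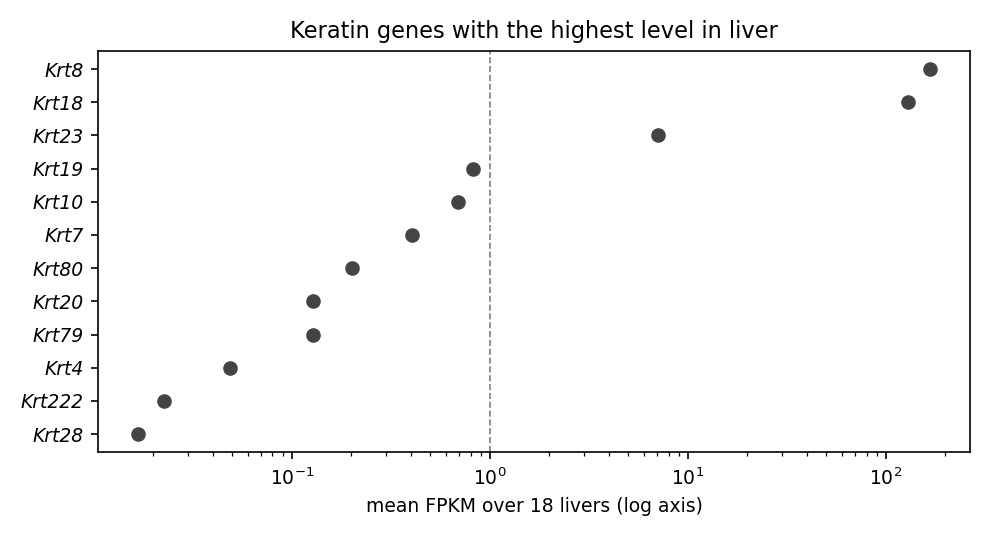
Mean FPKM over the 18 livers, on a log axis, of the keratin genes with the highest levels, 1 point per gene, with a dashed line at 1 FPKM. Krt8 (167 FPKM) and Krt18 (130.1 FPKM) stood above Krt23 (7.08 FPKM), and every other keratin lay below 1 FPKM.

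Krt8 and Krt18 are neighbours on mouse chromosome 15 (mm10). Krt8 lies on the minus strand at chr15:101996711-102004342 and Krt18 on the plus strand at chr15:102028216-102032026, with Krt7 at chr15:101412403-101427806 in the same keratin cluster. Krt23 (chr11:99477973-99493110, minus strand) and Krt19 (chr11:100140811-100145919) belong to the type I cluster on chromosome 11. Sox9 lies at chr11:112782210-112787757 and Epcam at chr17:87635979-87651127. Promoters of 5 of the 7 genes were matched by symbol in RefSeq (GRCm38.p6). Those of the partners Krt8 and Krt18 and of Krt23 are shown because the first 2 varied together from liver to liver and Krt23 differed between the genotypes in the opposite direction. Each runs 5′ to 3′ on the strand of its gene from 250 bases before the start annotated in RefSeq to 10 bases after it. For Krt23 that start lies upstream of the end of the gene in the deposited files, so its whole window precedes the deposited locus. Capitals mark a match to TATAAA.
Krt8, chr15:102004333-102004592, minus strand: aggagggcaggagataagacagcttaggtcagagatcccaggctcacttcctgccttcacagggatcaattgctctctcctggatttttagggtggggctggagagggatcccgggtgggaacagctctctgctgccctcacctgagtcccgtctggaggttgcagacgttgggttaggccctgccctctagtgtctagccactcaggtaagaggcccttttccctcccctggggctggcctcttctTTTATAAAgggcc
Krt18, chr15:102027966-102028225, plus strand: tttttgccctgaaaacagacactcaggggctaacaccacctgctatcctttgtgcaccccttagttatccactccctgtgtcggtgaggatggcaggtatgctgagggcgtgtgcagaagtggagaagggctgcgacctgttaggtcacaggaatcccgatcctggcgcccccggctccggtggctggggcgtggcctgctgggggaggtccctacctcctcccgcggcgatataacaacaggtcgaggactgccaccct
Krt23, chr11:99493111-99493370, minus strand: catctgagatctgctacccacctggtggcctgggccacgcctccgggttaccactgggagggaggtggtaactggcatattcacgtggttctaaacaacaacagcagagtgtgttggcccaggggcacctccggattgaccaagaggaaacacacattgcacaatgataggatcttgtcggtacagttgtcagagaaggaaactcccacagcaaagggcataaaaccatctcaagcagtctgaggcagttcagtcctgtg
Motifs were searched on both strands in 300 bases, 250 before to 50 after the start. The letters TATAAA, as in the TATA box, were found in the Krt8 window once on each strand, in overlapping letters. They begin at −3 and −1 from the annotated start and so run across it. Whether they act as a TATA box was not tested. The same letters were in 13.6% of 32851 RefSeq promoters of the same length. The GC box, spelled GGGCGG, was found 4 times in the Krt7 window and 1 time in that of Epcam, and in 35.7% of all promoters. The CCAAT box (37.4% of all promoters), the AP-1 motif with the letters TGANTCA (7.81%) and a Sox motif with the letters AACAAT (10.7%) were in none of the 5 windows. GC content was 58.0% for Krt8, 61.3% for Krt18 and 53.0% for Krt23, and 66.3% and 57.0% for Krt7 and Epcam.

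Of the 4 members with a mean of at least 1 FPKM, Krt8 and Sox9 were lower and Krt23 was higher in Gpr180KO livers in limma's test (adjusted p under 0.05), while Krt18 did not pass. Among all 10835 genes tested, 4.28% were called lower and 0.452% higher, 4.73% in all. The median log2 difference of these 4 members was −0.48, against −0.13 over all genes. After median-of-ratios scaling, which called 1.58% of genes lower and 1.03% higher (2.61% in all), 0 of the 4 members were called lower and 1 was called higher, Krt23.

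**Figure D2:**
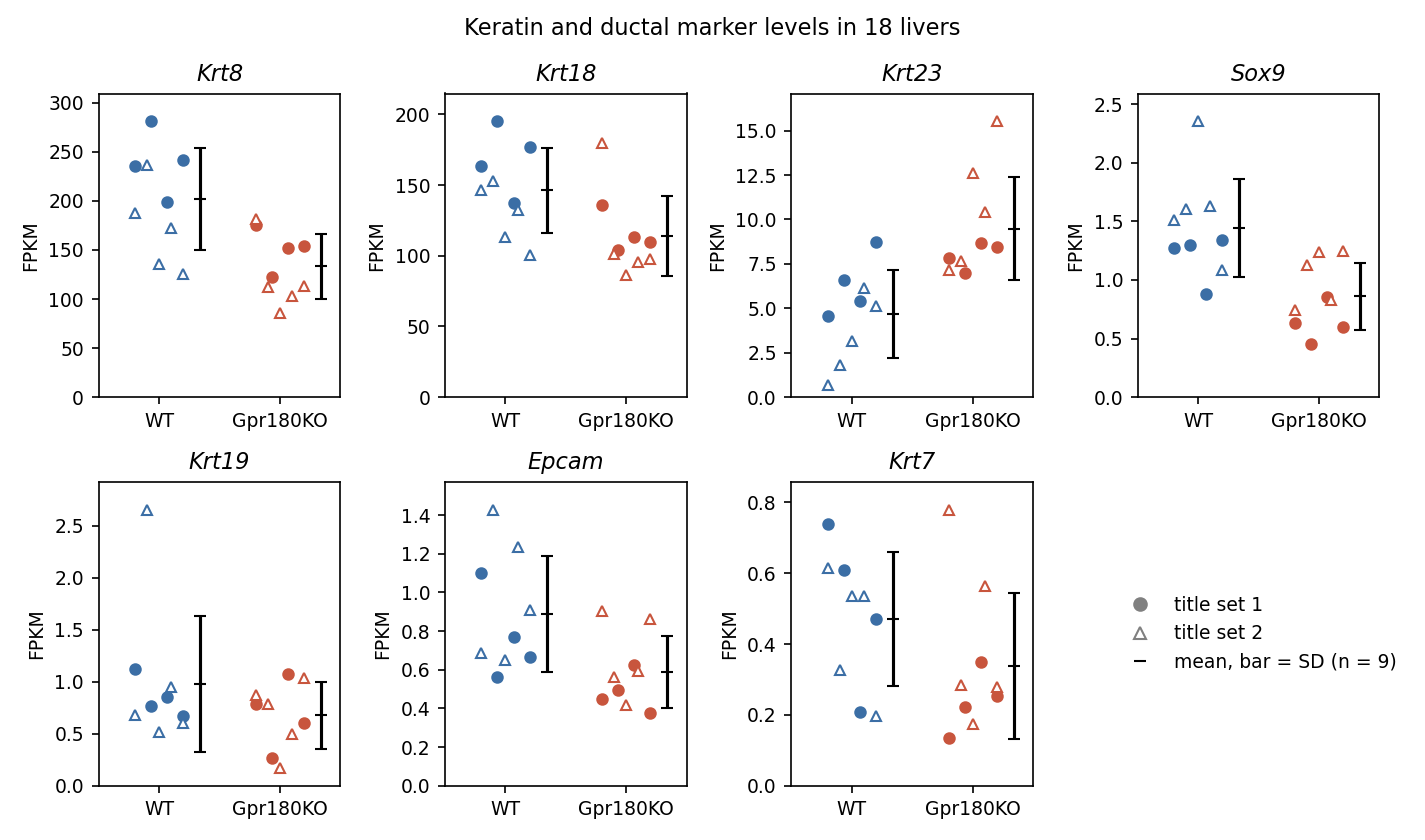
FPKM of each of the 7 genes (a linear axis from 0 in each panel) in 9 WT and 9 Gpr180KO livers, 1 point per mouse, with filled circles for set 1, open triangles for set 2 and a bar for the mean and SD. Krt8 and Sox9 points sat lower and Krt23 points higher in Gpr180KO, and the single high Krt19 point in WT was WT6 (2.65 FPKM).

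Krt8, the type II chain of hepatocyte filaments, was lower in Gpr180KO livers. In WT it ran from 125 FPKM (WT9) through a median of 199 to 281 FPKM (WT2), and in Gpr180KO from 85.7 FPKM (KO7) through a median of 122 to 181 FPKM (KO5). All 9 Gpr180KO livers lay below the WT median and 5 lay below the lowest WT liver, although the 2 ranges overlapped. The means were 201 ± 51.9 and 133 ± 33.5 FPKM (SD, n = 9 each). The log2(FPKM + 0.1) difference was −0.59 with a standard error of 0.17 and a 95% interval of −0.94 to −0.24 (limma, adjusted p = 0.0474). Set against the all-gene median, Krt8 stood at −0.46. Median-of-ratios scaling gave −0.47 with an adjusted p of 0.115 in limma, so the call was lost. With the title set as a block the adjusted p of Krt8 in limma was 0.0122 as deposited and 0.0564 scaled. The Krt8 call was also lost with 75th percentile scaling (limma, adjusted p = 0.0680) and with empirical Bayes without trend (0.0530). So it was with a minimum of 5 FPKM (0.0573) and with no filter (0.0583). Within set 1 the difference was −0.67 and the genotypes did not overlap (WT from 199 FPKM, Gpr180KO up to 175 FPKM), with a two-sided exact permutation p of 0.0286, the smallest that 4 against 4 allows. Within set 2 it was −0.53 (exact permutation p = 0.0556). With each liver left out in turn, Krt8 passed in 5 of 18 fits, with adjusted p in limma from 0.0159 (without WT9) to 0.102 (without WT6).

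Krt18, the type I partner, did not pass the test. WT livers held 100 FPKM (WT9) at the lowest, 147 at the median and 195 FPKM (WT2) at the highest, and Gpr180KO livers 86.1 (KO7), 104 and 180 FPKM (KO5). The ranges overlapped, with 8 of 9 Gpr180KO livers below the WT median and KO5 as the exception. KO5 also had the highest summed FPKM. The means were 146 ± 30.0 and 114 ± 28.4 FPKM, and the log2 difference of −0.37 (standard error 0.14) did not pass in limma (adjusted p = 0.124). It passed without KO5, at −0.46 with an adjusted p of 0.0330, and without WT9 (limma, adjusted p = 0.0499). Krt18 also passed with values rescaled to TPM (limma, adjusted p = 0.0382), with array weights (0.00302) and in set 1 alone (0.0413). The within-set differences were −0.53 in set 1 (exact permutation p = 0.0286) and −0.24 in set 2 (exact permutation p = 0.333). After median-of-ratios scaling the difference was −0.25 (limma, adjusted p = 0.390).

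The 2 partners varied together from liver to liver. Across the 9 WT livers Pearson's r between Krt8 and Krt18 was 0.974 (exact permutation p = 5.5e-05, adjusted over 8 relations 2.2e-04) and Spearman's rho was 0.967 (exact permutation p = 1.65e-04, adjusted 6.61e-04). Across the 9 Gpr180KO livers r was 0.880 (exact permutation p = 2.2e-05, adjusted 1.76e-04) and rho was 0.967 (exact permutation p = 1.65e-04, adjusted 6.61e-04). The sets hold too few livers per genotype for a correlation within each. Without the 2 livers farthest from the Krt8 median, WT9 and WT7 or KO5 and KO1, r was 0.928 in WT and 0.977 in Gpr180KO. The other 6 relations, between Krt8 and Krt23, Krt8 and Sox9, and Krt19 and Epcam in each genotype, gave adjusted p values of 0.0295 and above for Pearson's r and 0.115 and above for Spearman's rho in the exact permutation test. The lowest of these, Krt19 with Epcam in WT (r = 0.775, rho = 0.70), dropped to an r of 0.487 without WT6 and WT1.

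The ratio of Krt8 to Krt18 FPKM within a liver, which no scaling of the library changes, was lower in Gpr180KO. In WT it ran from 1.20 through a median of 1.37 to 1.54, and in Gpr180KO from 0.996 through 1.16 to 1.40. In Gpr180KO, 6 of the 9 livers lay below the lowest WT ratio and 8 of 9 below the WT median. The mean ratio was 1.36 ± 0.114 in WT and 1.17 ± 0.144 in Gpr180KO, with a log2 difference of −0.22 (exact permutation test, two-sided p = 0.00769, 9 against 9). Within set 2 the ratios of the genotypes did not overlap (5 of 5 Gpr180KO livers below the lowest WT ratio, a log2 difference of −0.29, exact permutation p = 0.00794, the smallest possible). Within set 1 the difference was −0.13 (exact permutation p = 0.0571), with 1 of 4 Gpr180KO livers above the lowest WT ratio. Each of the 18 fits without 1 liver kept a p under 0.05.

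**Figure D3:**
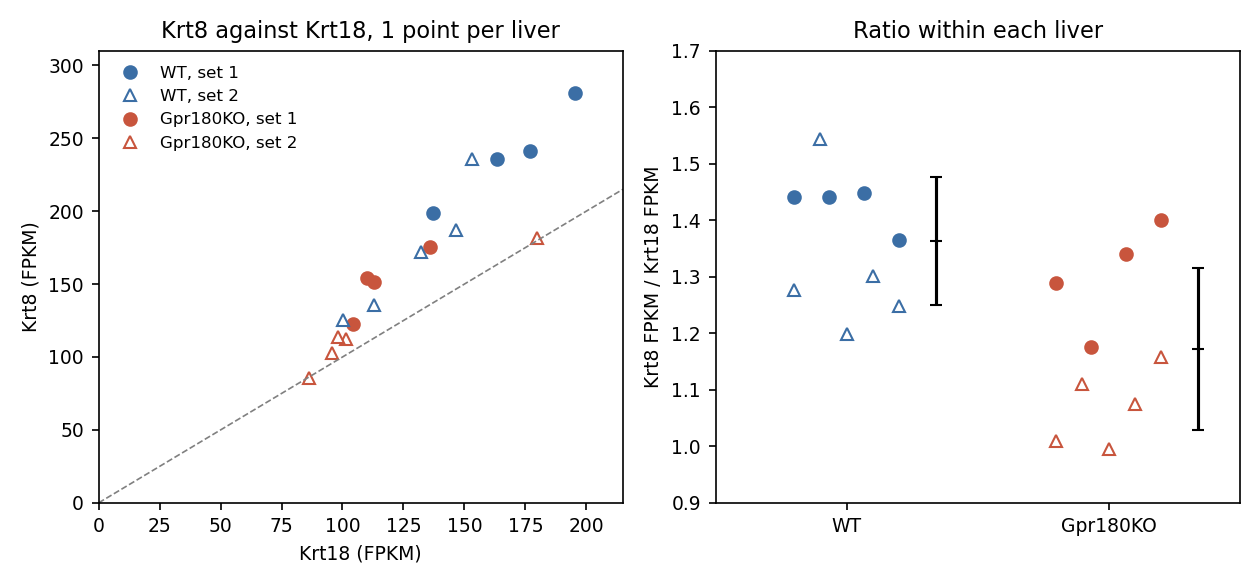
Left, Krt8 against Krt18 in FPKM, 1 point per liver by genotype (colour) and title set (shape), with a dashed line of equal levels. Right, the ratio of the 2 in each liver with its mean and SD, on an axis that starts at 0.9. WT ratios lay between 1.20 and 1.54 and Gpr180KO ratios between 0.996 and 1.40.

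Krt23, a type I keratin known to be induced in injured and steatotic liver, was higher in Gpr180KO livers, against the direction of the other 6 members. The WT livers ranged from 0.675 FPKM (WT5) through a median of 5.11 to 8.74 FPKM (WT4), and the Gpr180KO livers from 6.97 FPKM (KO2) through 8.45 to 15.5 FPKM (KO9). In WT, 8 of the 9 livers lay below the lowest Gpr180KO liver, with WT4 the exception, and 3 Gpr180KO livers lay above the highest WT liver. The means were 4.69 ± 2.49 and 9.47 ± 2.90 FPKM. The log2 difference was 1.22 with a standard error of 0.35 and a 95% interval of 0.49 to 1.96 (limma, adjusted p = 0.0494), and 1.34 after median-of-ratios scaling (limma, adjusted p = 0.0472). Without WT5, the lowest liver, it was 0.93. The Krt23 call was lost with values rescaled to TPM (limma, adjusted p = 0.0584), with array weights (0.0727), with robust empirical Bayes (0.0531), with empirical Bayes without trend (0.0546), with a pseudocount of 0.01 (0.0524), with a minimum of 5 FPKM (0.0603) and with no filter (0.0640). Krt23 passed with the title set as a block (limma, adjusted p = 0.0307, and 0.0321 scaled) and with 75th percentile scaling (0.0497). Without 1 liver it passed in 4 of the 18 fits (limma, adjusted p from 0.0395 without WT9 to 0.11 without WT6).

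The size of the Krt23 difference varied between the title sets. In set 2 the WT livers lay between 0.675 and 6.12 FPKM and the Gpr180KO livers between 7.13 and 15.5 FPKM with no overlap, a log2 difference of 1.91 (exact permutation p = 0.00794, the smallest that 5 against 5 allows). In set 1 the ranges were 4.56 to 8.74 and 6.97 to 8.69 FPKM, a log2 difference of 0.36 (exact permutation p = 0.171). The difference between the sets was 1.55 on the log2 scale with a standard error of 0.62, which limma's interaction test gave an adjusted p of 0.608 and an unadjusted p of 0.0227. That the sets differed was therefore not shown, and the interaction test called 0 of 10835 genes (833 at an unadjusted p under 0.05).

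Sox9, the transcription factor of ductal and progenitor cells, was lower in Gpr180KO livers at a level near 1 FPKM. Its WT values were 0.884 FPKM (WT3) at the lowest, 1.34 at the median and 2.36 FPKM (WT7) at the highest, and its Gpr180KO values 0.454 (KO2), 0.825 and 1.25 FPKM (KO9). All 9 Gpr180KO livers were below the WT median and 6 were below the lowest WT liver, while 7 WT livers were above the highest Gpr180KO liver. Mean levels were 1.44 ± 0.42 and 0.859 ± 0.29 FPKM. The log2 difference was −0.70 with a standard error of 0.20 (limma, adjusted p = 0.0454), and −0.59 after median-of-ratios scaling (limma, adjusted p = 0.121), where the call was lost. With the title set as a block Sox9 passed on both scales (limma, adjusted p = 0.0112 as deposited and 0.0280 scaled). The Sox9 call was lost with 75th percentile scaling (limma, adjusted p = 0.110) and with no filter (0.0503). The Sox9 difference was −0.83 in set 1, without overlap (exact permutation p = 0.0286), and −0.60 in set 2 (exact permutation p = 0.0317). Sox9 passed in 5 of the 18 fits without 1 liver (limma, adjusted p from 0.0294 without WT9 to 0.0898 without WT6).

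The 3 remaining ductal members had means below 1 FPKM and are given apart. Their listed confidence bounds were wide, with a median width of 115% of the value for Krt7, 95.7% for Krt19 and 78.9% for Epcam, against 7.04% for Krt8. For Krt8 the listed value lay outside its own bounds in all 18 libraries, so its width is no measure of precision. Epcam, the adhesion molecule of cholangiocytes, ran from 0.561 through 0.771 to 1.43 FPKM (WT6) in WT and from 0.377 through 0.563 to 0.903 FPKM (KO5) in Gpr180KO. The ranges overlapped, and 4 Gpr180KO livers lay below the lowest WT liver. The log2 difference was −0.52 (limma over genes of at least 0.1 FPKM, adjusted p = 0.10), and the exact permutation test of this gene alone gave an unadjusted p of 0.0153. Krt19, the keratin most used to count ductal cells, ran from 0.517 through 0.763 to 2.65 FPKM in WT and from 0.165 through 0.782 to 1.07 FPKM in Gpr180KO, so that the Gpr180KO median was no lower than that of WT. Its log2 difference of −0.47 did not pass (limma, adjusted p = 0.351, exact permutation p = 0.181). Krt7, its usual companion in bile ducts, ran from 0.197 through 0.535 to 0.739 FPKM in WT and from 0.133 through 0.278 to 0.780 FPKM (KO5) in Gpr180KO. The log2 difference of Krt7 was −0.42 (limma, adjusted p = 0.329, exact permutation p = 0.136). The 95% intervals were −0.91 to −0.12 for Epcam, −1.10 to 0.17 for Krt19 and −0.96 to 0.12 for Krt7, so that at this depth a loss of the size seen for Sox9 was neither shown nor set aside for Krt19 and Krt7. Within set 1 and set 2 the differences were −0.56 and −0.48 for Epcam, −0.39 and −0.53 for Krt19, and −0.78 and −0.13 for Krt7, with exact permutation p of 0.0571 and above. After median-of-ratios scaling the differences were −0.41 for Epcam, −0.36 for Krt19 and −0.32 for Krt7 (limma, adjusted p of 0.266 and above). In the fit over genes of at least 0.1 FPKM, 5.54% of 14016 genes were called lower and 0.435% higher, 5.97% in all.

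**Figure D4:**
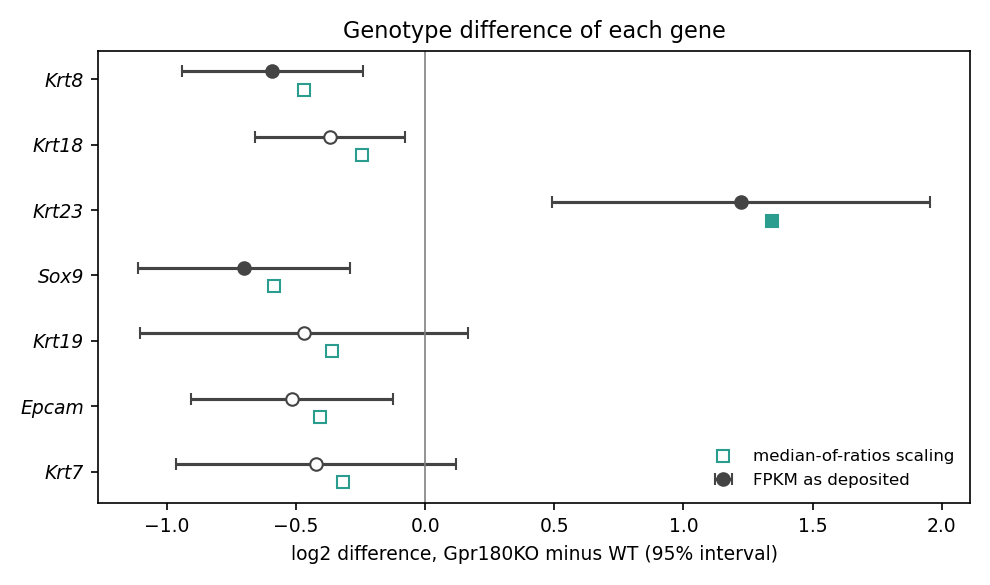
Log2 difference in FPKM (Gpr180KO minus WT) for each of the 7 genes, as deposited with the 95% interval (circles) and after median-of-ratios scaling (squares), with filled symbols where limma's adjusted p was under 0.05. 6 of the genes lie below 0 and Krt23 lies above it, and Krt23 is the gene filled on both scales.

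Other markers of the biliary epithelium were compared by a list that held 24 genes, of which 9 had a mean of at least 1 FPKM, and 2 of these 9 were called lower and 0 higher, against 4.28% and 0.452% of all genes. Spp1, which encodes osteopontin and is also made by macrophages and stellate cells, had 133 ± 71.6 FPKM in WT and 30.4 ± 10.5 FPKM in Gpr180KO (log2 difference −1.96, limma, adjusted p = 0.00701). Cd24a, a surface glycoprotein of ductal and progenitor cells, fell from 3.56 ± 1.49 to 1.31 ± 0.56 FPKM (log2 difference −1.38, limma, adjusted p = 0.00677). Both kept their call after median-of-ratios scaling (limma, adjusted p = 0.0137 and 0.0159). The median over the 9 genes was −0.24 as deposited and −0.12 scaled, against −0.13 and −0.01 over all genes. The smallest differences among the 9 were −0.05 for the tight junction gene Cldn3 and −0.11 for the water channel Aqp1, which were 0.08 and 0.01 after scaling.

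With the minimum at 0.1 FPKM, 19 of the 24 ductal genes were tested, all 19 had a difference below 0 as deposited, as had 77.9% of all genes, and 7 were called lower, against 5.54% of all genes. Their median was −0.72, against −0.15 over all 14016 genes. The 5 called in addition, named after their values were seen, were Bicc1 (−1.16), Ehf (−1.03), the mucin Muc1 (−0.92), Sox4 (−0.83) and Prom1 (−0.78), the last encoding CD133 of progenitor cells. Their levels were low, as for Muc1 with 0.573 ± 0.22 FPKM in WT and 0.249 ± 0.075 FPKM in Gpr180KO. Median-of-ratios scaling left 5 of the 7 calls, without Sox4 and Prom1 (limma, adjusted p = 0.0593 and 0.0668). That scaled fit called 304 of 14016 genes lower and 129 higher.

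**Figure D5:**
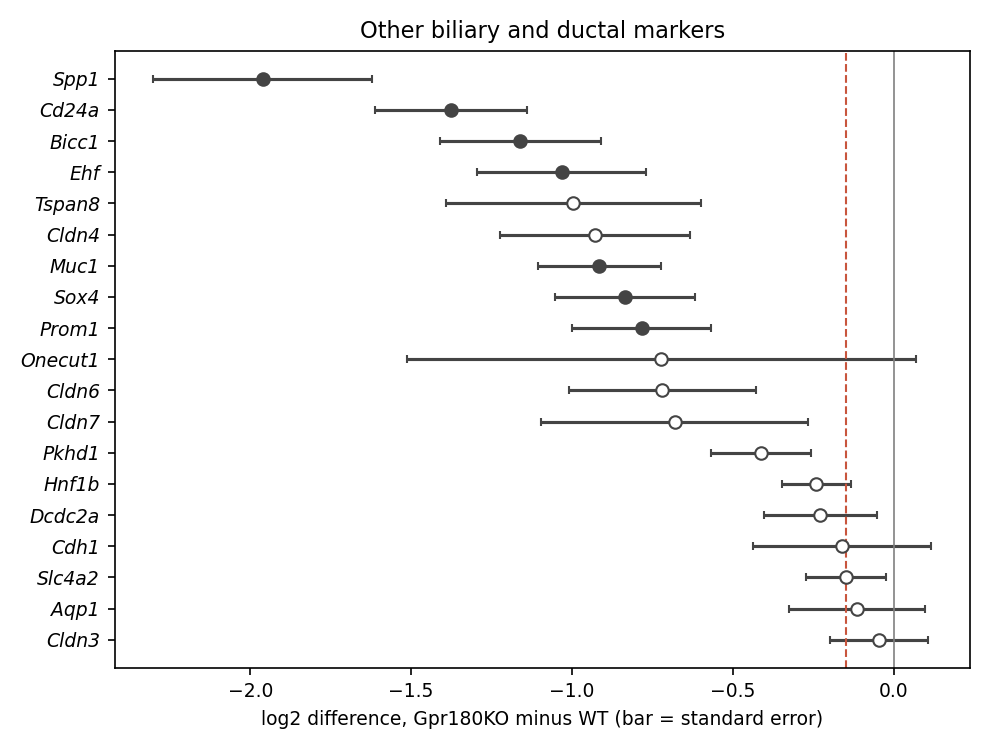
Log2 difference (Gpr180KO minus WT, bar = standard error) of the 19 other biliary and ductal markers with a mean of at least 0.1 FPKM, filled where limma's adjusted p was under 0.05. The dashed line is the median of all genes tested (−0.15), and the genes run from −1.96 (Spp1) to −0.05 (Cldn3).

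Genes of the Notch and YAP pathways, which control Sox9 and the ductal programme, were called lower for 2 of 12 tested and higher for 0, against 4.28% and 0.452% of all genes. Their median was −0.28 as deposited and −0.16 scaled, against −0.13 and −0.01 over all genes. These were Wwtr1, which encodes the co-activator TAZ, with 7.50 ± 1.40 FPKM in WT and 4.09 ± 0.99 FPKM in Gpr180KO (−0.88, limma, adjusted p = 0.00631), and Tead1, a DNA-binding partner of YAP and TAZ (−0.79, limma, adjusted p = 0.0393). Wwtr1 kept its call after scaling and Tead1 did not (limma, adjusted p = 0.00938 and 0.0682). With the minimum at 0.1 FPKM, 4 of 15 were called lower, against 5.54% of all genes. After scaling 2 of 15 were, against 304 of 14016 genes. The calls added were Heyl (−0.66, limma, adjusted p = 0.0141, and 0.0240 scaled) and Ajuba (−0.46, limma, adjusted p = 0.0440, and 0.171 scaled). At a minimum of 1 FPKM with the title set as a block Ajuba passed (limma, adjusted p = 0.0248). The fit with that block called 1031 of 10835 genes lower.

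Genes that tie keratin filaments to desmosomes were below 0 in 9 of 9 tested, as were 76.9% of all genes, and 1 was called lower, against 4.28% of all genes. Their median was −0.34 as deposited and −0.21 scaled. That was periplakin (Ppl), a linker of filaments to junctions, at 2.64 ± 0.74 FPKM in WT and 1.28 ± 0.84 FPKM in Gpr180KO (−1.18, limma, adjusted p = 0.0346, and 0.0466 scaled). Of 5 other intermediate filament genes 1 was called lower, vimentin (Vim) of mesenchymal cells (−0.78, limma, adjusted p = 0.0393), against 4.28% of all genes. Vim lost its call after scaling (limma, adjusted p = 0.0810), and the median of the 5 was −0.35 as deposited and −0.23 scaled. The fit with the title set as a block called 1031 of 10835 genes lower. In it Vim, Lmna and Lmnb2 passed (limma, adjusted p = 0.0150, 0.0428 and 0.0384). The Mallory-Denk body partners and small heat shock proteins gave 0 calls in limma among 8, with 3 lower and 0 higher at an unadjusted p under 0.05, and a median of −0.06 that turned to 0.06 after scaling. The largest differences among them were −0.53 for the small heat shock protein Cryab (limma, adjusted p = 0.176) and −0.51 for the crosslinking enzyme Tgm2 (limma, adjusted p = 0.0664). With the title set as a block Tgm2 passed (limma, adjusted p = 0.00954). Sqstm1, whose product p62 sits in Mallory-Denk bodies with keratins 8 and 18, had 223 ± 42.3 FPKM in WT and 217 ± 26.1 FPKM in Gpr180KO. Of the 14 further keratins on the list, 0 reached 1 FPKM, and the 4 with a mean of at least 0.1 FPKM gave 0 calls in limma.

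Markers of other liver cells are given beside these results. Of 12 hepatocyte markers 0 were called lower and 1 higher, the antitrypsin gene Serpina1c (0.52, limma, adjusted p = 0.0436), against 0.452% of all genes, with a median of 0.19. Serpina1c lost its call after scaling (limma, adjusted p = 0.0507). With the title set as a block Serpina1c and Pck1 passed as higher (limma, adjusted p = 0.00993 and 0.0268). The fit with that block called 122 of 10835 genes higher and 1031 lower. Stellate cell and fibroblast markers were called lower for 5 of 8 on both scales, against 4.28% of all genes as deposited and 1.58% scaled. Their median was −0.82 (−0.71 scaled), and the called genes included Col1a1 (−1.99), Col3a1 (−1.73), Lum (−1.41) and Pdgfrb (−0.82). With the title set as a block Reln passed as well (limma, adjusted p = 0.0150). The summed level of the stellate list was 143 to 285 FPKM in WT and 80.6 to 141 FPKM in Gpr180KO. WT6, which had the highest Krt19 and Epcam, also had the highest summed level of stellate markers and of other ductal markers (368 FPKM). Macrophage markers were called lower for 1 of 7 on both scales (Cd68, −0.69), against the same 4.28% and 1.58% of all genes. Their median was −0.20 (−0.08 scaled). With a minimum of 0.1 FPKM, 2 of 8 were called lower, against 5.54% of all genes. The macrophage sums were 155 to 443 FPKM in WT and 189 to 283 FPKM in Gpr180KO. WT7, the highest for Sox9, was also the highest in macrophage sum. In Gpr180KO the order differed. KO2 had the lowest Sox9 (0.454 FPKM) and the highest macrophage sum (283 FPKM). KO9 had the highest Sox9 of that genotype (1.25 FPKM) and a macrophage sum of 191 FPKM. Endothelial markers gave 0 calls in limma of 7, with 0 at an unadjusted p under 0.05 and a median of −0.20 (−0.07 scaled). Proliferation markers gave 0 calls in limma of 2, with both lower at an unadjusted p under 0.05 and a median of −0.92. With the title set as a block Top2a passed (limma, adjusted p = 0.0276). All 7 mesothelial markers, of the cells at the liver surface that also express Krt8, Krt18, Krt7 and Krt19, were below 1 FPKM, with sums of 0.619 to 2.35 FPKM in WT and 0.747 to 3.26 FPKM in Gpr180KO. All 7 lymphocyte markers were below 1 FPKM as well. Of the pancreas and gut markers 1 of 9 reached 1 FPKM (Cela1, 0.74, limma, adjusted p = 0.0552, and 0.0393 with the title set as a block), and 3 were at 0 in every library. With a minimum of 0.1 FPKM, 1 of 2 pancreas and gut markers was called lower, against 5.54% of all genes. That was Tff2, with means near the floor of 0.192 FPKM in WT and 0.015 FPKM in Gpr180KO. The part of these cell types in the keratin and Sox9 differences was not tested.

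The genes whose level followed the members most closely over the 18 livers, with the genotype means removed, are a description with no test. For Krt8 they were Ctsd (r = 0.931), Mvp (0.916) and Nudt18 (0.911), with Krt18 seventh at 0.907. For Krt18 they were Aldoa (r = 0.933), Clic1 (0.926) and Ctsz (0.920). Krt23 had its closest genes in 1700028E10Rik (r = 0.809), Tspan9 (0.773) and Tagap1 (0.762), and Sox9 in Eif1ax (r = 0.829), Ddx10 (0.814) and Zscan12 (0.804). Krt23 and Krt8 stood at an r of −0.065 and Sox9 and Krt8 at −0.41 on the same measure. Livers of a set share it, and points share depth within a library.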

How the data were processed

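Liver poly(A) RNA was prepared with Trizol and a TruSeq mRNA kit and sequenced as single reads. Per the labels, the authors aligned with TopHat to mm10 (GRCm38). By the study's methods, the TopHat Alignment application (Illumina) was used and its output was FPKM. The program within it that computed the FPKM and the annotation are not given in the sources used here. The deposited values are FPKM per gene with lower and upper FPKM bounds of unstated level. FPKM were summed over rows that share a symbol (23847 entries, 23352 symbols), and 24 genes with failed values, none a member, were left out. Genotypes were compared with limma 3.58.1 (R 4.3.3) on log2(FPKM + 0.1), with trended empirical Bayes and Benjamini-Hochberg adjustment over 10835 genes with a mean of at least 1 FPKM; fold changes on this scale understate those of low genes. Members below 1 FPKM took their adjusted p from a fit with a minimum of 0.1 FPKM. Single values and ratios used two-sided exact permutation tests (scipy 1.17.1), whose smallest p for 9 against 9 is 4.11e-05. Exact tests of correlations ran over 362880 pairings. The limma step was tested on simulated data. Members, the 14 gene lists and the tests were chosen with earlier results of these data known. Named genes are the members, up to 4 called genes per list by size of difference (where none was called, up to 2) and the 3 genes most like each member of at least 1 FPKM. Outside this rule, 5 ductal genes below 1 FPKM were named after their values were seen. So were Sqstm1, Cldn3, Aqp1, Krt10, Krt20, Onecut1, Heyl, Ajuba, Lmna, Lmnb2, Pck1, Reln and Tff2. Symbols were matched through synonyms in RefSeq's gene table where needed. FPKM carry no counts, so no counting interval is given. One library stands for 1 mouse, and the tests set each difference or relation against the spread between mice. In fits over both title sets without the block, that spread includes any difference between the sets.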

Additional observations from a re-analysis of the deposited data

Results flagged for a closer look

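Krt19 in WT livers had a single library far from the others. WT6 had 2.65 FPKM, the next highest 1.12 FPKM (WT1) and the lowest 0.517 FPKM, so that the gap to the nearest liver was 0.719 of the whole range, above Dixon's 95% critical value for 9 samples. Of 16 groups tested this way 1 was flagged, and chance flags about 1 in 20. The same liver had the highest Epcam (1.43 FPKM).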

How the results depend on the processing

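Every member kept its direction under each alternative run. The number of members called was 3 of 4 as reported (2 lower, 1 higher), and 3, all lower and without Krt23, with TPM, with array weights and in set 1 alone. It was 1 with 75th percentile scaling, with empirical Bayes without trend and with median-of-ratios scaling at either minimum (1 FPKM or 0.1 FPKM). It was also 1 with median-of-ratios scaling in set 1 alone. With a minimum of 5 FPKM it was 0 of 3, as Sox9 lay below that minimum and was not tested. With no filter it was 0 of 7, and in set 2 alone it was 0 on either scale. All genes called numbered 513 (464 lower, 49 higher) as reported, 322 (214 lower, 108 higher) with 75th percentile scaling, 283 (171 lower, 112 higher) with median-of-ratios scaling, 1331 with array weights, 837 with a minimum of 0.1 FPKM, 238 with one of 5 FPKM, 1153 with the title set as a block, and 0 in set 2 alone on either scale (limma, 2019 as deposited and 1486 after scaling at an unadjusted p under 0.05). Leaving out 1 liver gave 132 (without WT6) to 922 (without WT9) genes and 0 to 4 members (4 without KO5 and 4 without WT9). Krt8, Krt23 and Sox9 passed in 5, 4 and 5 of these 18 fits. The log2 difference of the Krt8 to Krt18 ratio was −0.26 to −0.19 without 1 liver, with exact permutation p of 0.00255 to 0.0154, and −0.13 in set 1 alone, where it did not pass. The cause of these changes was not tested. Median-of-ratios scaling with a minimum of 0.1 FPKM, with the set as a block or within a set was chosen after seeing the data. No paired analysis was possible because the replicate numbers follow accession order and the labels pair no mice. Depth limits Krt7, Krt19 and Epcam most.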

Other observations

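The listed FPKM of Krt8 and Krt18 lay outside their own confidence bounds in all 18 libraries, while those of the other 5 members lay inside in every library. Krt20, a keratin of gut and urothelium, had a mean of 0.229 FPKM in WT (0 to 0.90 FPKM) and 0.029 FPKM in Gpr180KO (0 to 0.111 FPKM), a log2 difference of −0.94 that did not pass (limma, adjusted p = 0.141). Onecut1, a transcription factor of hepatocyte and biliary fate, ranged from 1.31 to 34.6 FPKM in WT and from 0.888 to 47.9 FPKM in Gpr180KO, with a log2 difference of −0.72 and a standard error of 0.79 (limma, adjusted p = 0.60).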
